A study of Mus musculus with 8 samples.

Results

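The genes described here are 10 sensors of foreign or misplaced nucleic acid and their closest partners, measured by RNA sequencing in cecal tumors of mice. They were chosen by symbol from a deposited table of gene expression, Ddx58, Ifih1, Dhx58, Trim25, Mavs, Zbp1, Eif2ak2, Tmem173, Tlr7 and Tlr9, and all 10 were found among 34586 symbols, with 1 row each. The tumors are a mouse model of gastrointestinal stromal tumor (GIST), which is thought to arise from the interstitial cells of Cajal that pace the gut. There were 4 tamoxifen libraries and 4 vehicle libraries. Tumors of both groups came from C57BL/6 mice that carried Kit V558Delta/+, an activating mutation of the receptor kinase Kit. They were also Etv1 flox/flox and Rosa26 CreERT2/CreERT2, so that tamoxifen switches on a Cre recombinase that cuts the ETS factor gene Etv1. The Rosa26 locus is active in most cell types, so cutting need not be limited to tumor cells. No tamoxifen-treated tumors without floxed Etv1 were analysed, so loss of Etv1 and other actions of tamoxifen cannot be told apart. The labels used here state no dose, time or age. They also do not say whether every replicate is a separate mouse, and a p-value then reflects only how much these samples vary. Xist, the RNA of the inactive X chromosome, was at 0.440 FPKM or less in 2 libraries of each group and at 245 FPKM or more in the other 2, so the libraries of a group did not all come from 1 mouse.

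Cells read nucleic acid in the wrong place as a sign of infection or damage. The RIG-I-like receptors in the cytosol bind viral or misplaced double-stranded RNA and signal through Mavs, an adaptor on mitochondria, while cytosolic DNA is reported by a cyclic dinucleotide that activates the adaptor STING, the product of Tmem173. The Toll-like receptors Tlr7 and Tlr9 sample RNA and DNA inside endosomes, mainly in dendritic cells, B cells and macrophages. The outcome is interferon, and several sensors are themselves interferon-induced genes.

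Values are FPKM, in which the fragments of a gene are scaled to the length of its transcript and to the size of the library, so levels can be compared between genes. Each library had 14176 to 14841 symbols at 1 FPKM or more, and its read depth is unknown. Rank correlations across genes were 0.883 to 0.916 within the tamoxifen group, 0.931 to 0.939 within the vehicle group and 0.867 to 0.914 between them. The GIST markers Kit and Ano1 were high in every library, at 386 to 567 and 372 to 538 FPKM in tamoxifen tumors, against 542 to 892 and 414 to 603 FPKM in vehicle tumors. Etv1 itself measured 34.9, 19.7, 31.4 and 17.4 FPKM in tamoxifen tumors, replicates 1 to 4, against 34.6, 51.1, 40.4 and 38.6 FPKM in vehicle tumors. It did not pass the threshold (log2 fold change -0.70, limma adjusted p = 0.13), and the ranges of the groups overlapped through tamoxifen replicate 1. Over the alternatives its limma adjusted p ran from 0.049, when libraries were given quality weights, to 0.554.

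Of the 10 sensor genes, 5 fell after tamoxifen and none rose, by limma on log2(FPKM + 1) with Benjamini-Hochberg adjustment over 15023 tested genes and a threshold of 0.05. Of all tested genes 5.45% passed, 3.07% lower and 2.38% higher after tamoxifen (461 and 358 genes). The genes that fell were Zbp1, Dhx58, Tmem173, Ddx58 and Mavs. Ifih1, Eif2ak2, Tlr9, Trim25 and Tlr7 did not pass, and Tlr7 was the 1 gene of the 10 with a positive change. All 10 passed the filter of a mean of 1 FPKM. The median change of the 10 was -0.90 on the log2 scale, against 0.01 over all tested genes. In 6 of the 10 the tamoxifen values lay wholly below the vehicle values, where 7.74% of tested genes did so and 15.1% were separated in either direction. The 5 calls held without any 1 library in turn, with adjusted p of at most 0.0496. They also held when libraries were scaled by the median ratio over genes, with adjusted p of at most 0.021 (Tmem173). A scaling that gives each library an equal FPKM total kept the call of Zbp1 alone (adjusted p = 0.033), and gave 0.0797 for Dhx58, 0.0984 for Tmem173, 0.145 for Ddx58 and 0.225 for Mavs. Of that total 5.44% to 54.7% belonged to Ighj1 and Ighj4, immunoglobulin joining segments, and with these 2 segments taken out of it, a scaling chosen after seeing the data, all 5 calls held and Ifih1 passed as well (adjusted p = 0.0344). Over the whole table, 153 genes were called higher and 75 lower after tamoxifen with equal totals, and 266 higher and 581 lower with the segments taken out.

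**Figure D1:**
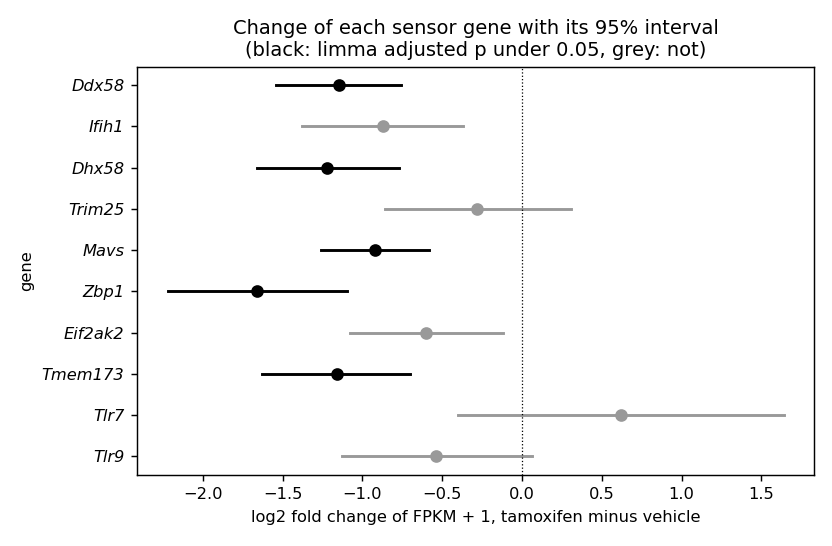
Change of each gene between tamoxifen and vehicle tumors as the log2 fold change of FPKM + 1 (x axis, positive is higher after tamoxifen), with the 95% interval of the limma fit as a bar. The 5 black genes passed the adjusted threshold, from -1.66 for Zbp1 to -0.92 for Mavs, and Tlr7 has the widest interval, -0.40 to 1.64.

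Promoter sequence was available for 6 of the 10 genes from RefSeq (build GRCm38.p6), namely Ddx58, Ifih1, Mavs, Tlr9, Trim25 and Eif2ak2. These sequences are shown because the RNA sensors carry letters of the interferon-stimulated response element, the site that interferon-activated factors read. The windows of 300 bases, 250 before and 50 after the start site, were searched on both strands for a GAAA followed after any 2 bases by another GAAA, the core of that element, and for TTCNNNGAA, the core of the gamma-activated site. The first was in 3 of the 6 genes, Ddx58, Ifih1 and Eif2ak2, against 3.44% of 32851 promoters, and the second in Eif2ak2 alone, against 8.3%. Another pattern, GAAANGAAA, was added after the sequences had been read, and was in Ddx58 alone, against 3.17% of promoters. It shares no base with the response element core of that gene. A match is a string of letters and not a measured binding site. The stretches around the response element cores are given on the strand of each gene, with the match in capitals.
Ifih1, chr2:62646206-62646233, minus strand, match at bases 33 to 42 counted from 1 at the start site: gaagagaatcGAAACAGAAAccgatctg
Ddx58, chr4:40239806-40239833, minus strand, match on the opposite strand at bases 3 to 12: cctgaggcagTTTCGATTTCctatggcc
Eif2ak2, chr17:78882537-78882564, minus strand, match at bases 19 to 28: agtccgccggGAAAACGAAAcagaagag
For comparison, the last 100 bases before the start site are given for Ddx58, with the GAAANGAAA match in capitals, and for Mavs, which fell with no match to any of the 3 patterns in its window.
Ddx58, chr4:40239826-40239925, minus strand: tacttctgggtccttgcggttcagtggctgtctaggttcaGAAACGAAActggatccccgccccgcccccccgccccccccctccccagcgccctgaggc
Mavs, chr2:131233963-131234062, plus strand: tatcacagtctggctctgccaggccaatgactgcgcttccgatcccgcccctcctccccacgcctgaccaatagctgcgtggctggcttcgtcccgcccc
Of the 3 genes with a response element core, Ddx58 passed the threshold, and Ifih1 and Eif2ak2 did not.

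Ddx58 encodes RIG-I, which binds short double-stranded RNA with a 5′ triphosphate (ENSMUSG00000040296, chromosome 4, 40150806 to 40186861 in mm9). It measured 53.2, 40.4, 53.7 and 47.3 FPKM in tamoxifen tumors, replicates 1 to 4, against 83.0, 137, 108 and 114 FPKM in vehicle tumors. Every tamoxifen value lay below every vehicle value, and the tamoxifen values were the tighter set. The log2 fold change was -1.15 (SE 0.17, limma adjusted p = 0.0118), with means of 48.7 ± 6.22 FPKM in tamoxifen and 111 ± 22.2 FPKM in vehicle tumors (SD, n = 4 each).

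Ifih1 encodes MDA5, the receptor for long double-stranded RNA (ENSMUSG00000026896, chromosome 2, 62433855 to 62484312). It measured 34.4, 24.5, 24.6 and 31.2 FPKM in tamoxifen tumors, against 36.7, 75.9, 49.5 and 56.2 FPKM in vehicle tumors. The groups did not overlap, but vehicle replicate 1 stood only just above the highest tamoxifen library. Its log2 fold change of -0.87 (SE 0.22) had a limma adjusted p of 0.0593. The gene passed without vehicle replicate 1 (adjusted p = 0.0415) and when libraries were given quality weights (0.0448).

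Dhx58 encodes LGP2, the relative of RIG-I and MDA5 that binds RNA but lacks their signalling domains. It measured 16.4, 14.7, 22.4 and 25.7 FPKM in tamoxifen tumors, against 40.9, 49.6, 40.5 and 55.9 FPKM in vehicle tumors. All tamoxifen values were below all vehicle values, a 2.36-fold lower mean, with a log2 fold change of -1.22 (SE 0.20, limma adjusted p = 0.0153). The table gives 1 shared locus (chromosome 11, 100436218 to 100565585) to Dhx58, Dnajc7, Cnp, Nkiras2 and Zfp385c, all above 1 FPKM, so reads could be split between them. For Dhx58, the mean distance of the authors' upper and lower confidence bounds from the value was 105% to 150% of that value. It was 52.8% to 57.5% for Ddx58 and 48.7% to 81.6% for Ifih1.

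**Figure D2:**
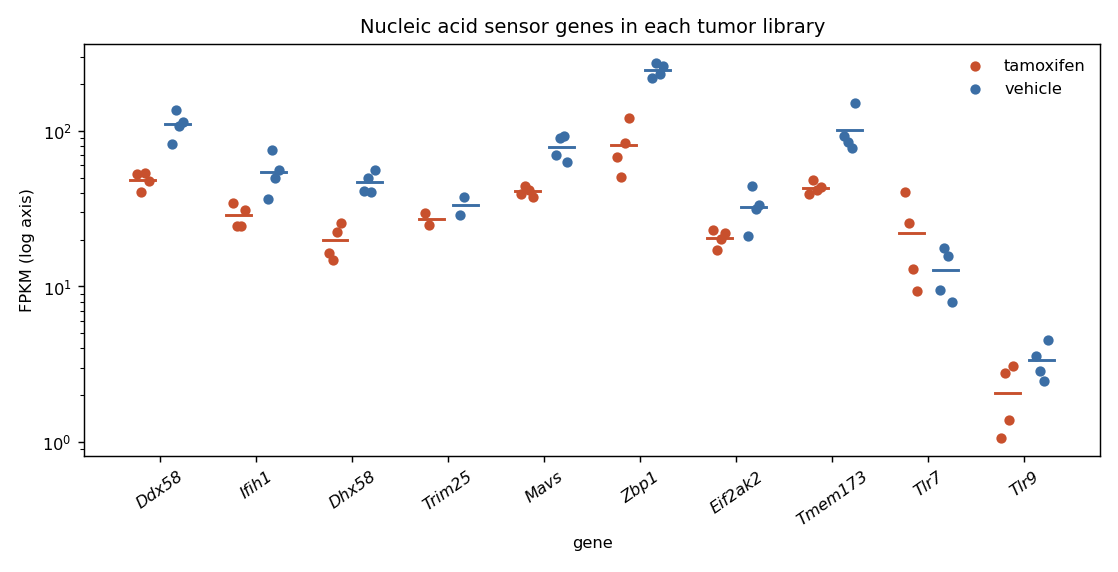
FPKM (y axis, log scale) of each gene in each library, with tamoxifen tumors at left and vehicle tumors at right of each gene and the group mean as a line. The groups are separate for Ddx58, Ifih1, Dhx58, Mavs, Zbp1 and Tmem173, and Trim25 has only 2 points in each group because the other estimates failed.

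Trim25 is a ubiquitin ligase known for activating RIG-I (ENSMUSG00000000275, chromosome 11, 88860690 to 88881607). Its estimate failed in replicates 3 and 4 of each group, so the fit rests on 2 libraries a group. It measured 29.5 and 24.9 FPKM in tamoxifen replicates 1 and 2, against 28.9 and 37.9 FPKM in vehicle replicates 1 and 2. The values overlapped, and the log2 fold change of -0.28 (SE 0.22, 95% interval -0.86 to 0.31) did not pass (limma adjusted p = 0.527). With every library scaled to the same total the change was 0.08. It was -0.38 with Ighj1 and Ighj4 taken out of that total and -0.30 with scaling by the median ratio.

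Mavs, the adaptor that RIG-I and MDA5 share, fell as well (ENSMUSG00000037523, chromosome 2, 131059799 to 131073761). It measured 39.5, 44.4, 41.7 and 37.9 FPKM in tamoxifen tumors, against 69.8, 90.4, 93.2 and 62.7 FPKM in vehicle tumors. The tamoxifen tumors were close to one another, with a coefficient of variation of 6.90%, against 19.1% in vehicle tumors, and the groups did not overlap. For Mavs the log2 fold change was -0.92 (SE 0.15, limma adjusted p = 0.0158).

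The changes of receptors and adaptor were compared within libraries as log2 ratios, with exact 2-sided permutation tests over 70 arrangements and adjustment over 6 pairs. The change of Ddx58 differed from that of Mavs by -0.24 (SE 0.20), that of Ifih1 by 0.04 (SE 0.26) and that of Dhx58 by -0.30 (SE 0.30). None of these differences passed (exact adjusted p = 0.40, 0.686 and 0.40), which does not show that the genes changed alike. The sign for Ifih1 turned without tamoxifen replicate 1 or 4 or vehicle replicate 1 or 3, to between -0.07 and -0.03. Trim25 and Eif2ak2 differed from Mavs by 0.63 (SE 0.20, 2 libraries a group) and 0.32 (SE 0.24), also without passing (exact adjusted p = 0.40 for each). With 2 libraries a group the smallest exact p is 0.333, and with 4 a group it is 0.0286, at which a single pair could not pass the adjustment over 6.

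Zbp1 showed the largest fall of the 10. It encodes a receptor for left-handed Z-form nucleic acid that can trigger necroptosis through Ripk3 (ENSMUSG00000027514, chromosome 2, 173032113 to 173044424). It measured 67.9, 50.8, 83.6 and 121 FPKM in tamoxifen tumors, against 219, 275, 232 and 263 FPKM in vehicle tumors. The highest tamoxifen library, replicate 4, was far below the lowest vehicle library. Means were 80.8 ± 30.0 FPKM in tamoxifen and 247 ± 26.3 FPKM in vehicle tumors (SD, n = 4 each), a 3.05-fold lower level after tamoxifen (log2 fold change -1.66, SE 0.25, limma adjusted p = 0.0118).

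Eif2ak2 encodes PKR, the kinase that stops translation when it meets double-stranded RNA. It measured 23.0, 17.3, 20.2 and 21.9 FPKM in tamoxifen tumors, against 21.1, 44.1, 31.4 and 33.7 FPKM in vehicle tumors. Vehicle replicate 1 fell inside the tamoxifen range, and the other 3 vehicle libraries were above it. The log2 fold change was -0.60 (SE 0.21, limma adjusted p = 0.139), and without vehicle replicate 1 the adjusted p was 0.0522. The table assigns its locus (chromosome 17, 79251904 to 79306332) also to the ribosomal RNA entry n-R5s29, at a mean of 9.15 FPKM.

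Tmem173, the gene of STING, fell as well (ENSMUSG00000024349). It measured 39.5, 48.2, 41.6 and 43.8 FPKM in tamoxifen tumors, against 92.4, 84.5, 77.7 and 150.3 FPKM in vehicle tumors. The groups did not overlap, and vehicle replicate 4 was the highest library. The log2 fold change was -1.16 (SE 0.20, limma adjusted p = 0.0191), and -0.96 without vehicle replicate 4, with the call kept. The upstream enzyme cGAS, which makes the dinucleotide that STING reads, is listed under its older symbol E330016A19Rik and was low in both groups. It measured 1.38 ± 0.328 FPKM in tamoxifen and 2.34 ± 0.441 FPKM in vehicle tumors (log2 fold change -0.49, limma adjusted p = 0.128).

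**Figure D3:**
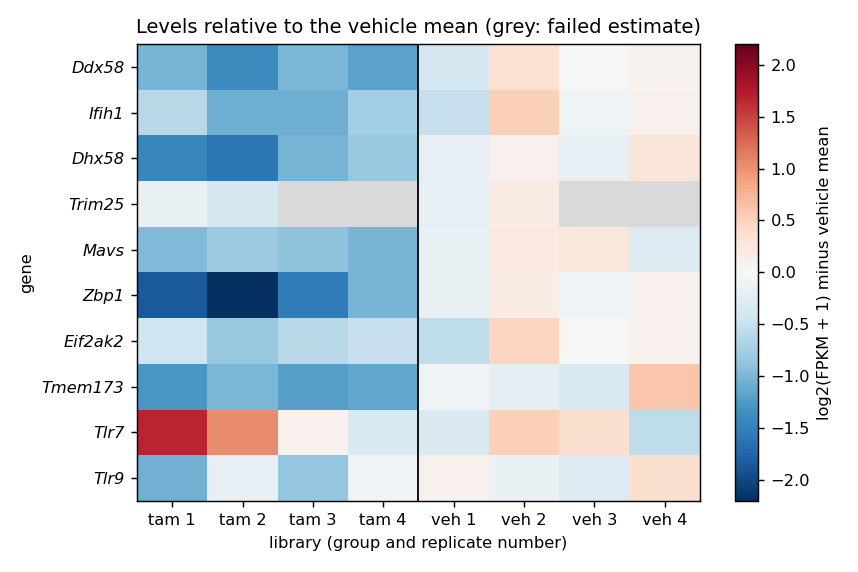
Level of each gene (rows) in each library (columns, tamoxifen at left of the line, vehicle at right) as log2(FPKM + 1) minus the mean of the vehicle libraries. Blue is below and red above the vehicle mean, grey marks a failed estimate, and Tlr7 is strongly red in tamoxifen replicates 1 and 2.

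Tlr7, the endosomal receptor for single-stranded RNA, was spread widely after tamoxifen (ENSMUSG00000044583, chromosome X, 163742861 to 163768490). It measured 40.8, 25.7, 12.99 and 9.35 FPKM in tamoxifen tumors, against 9.46, 17.7, 15.6 and 7.89 FPKM in vehicle tumors. Tamoxifen replicates 1 and 2 were above every vehicle library, and replicates 3 and 4 lay inside the vehicle range. The log2 fold change was 0.62 (SE 0.45, 95% interval -0.40 to 1.64, limma adjusted p = 0.458). The coefficient of variation was 64.1% in tamoxifen and 37.3% in vehicle tumors. The same 2 tamoxifen libraries were also highest for Tlr8, a Toll-like receptor gene that lies next to Tlr7, at 6.92 and 8.78 FPKM in replicates 1 and 2, against 3.23 and 3.08 FPKM in replicates 3 and 4. The mean distance of the authors' upper and lower confidence bounds from the Tlr7 value was 89.3% to 124% of that value.

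Tlr9, the endosomal receptor for DNA rich in unmethylated CpG, was the lowest of the 10 genes in both groups (ENSMUSG00000045322, chromosome 9, 106124929 to 106129207). It measured 1.07, 2.77, 1.39 and 3.08 FPKM in tamoxifen tumors, against 3.57, 2.88, 2.46 and 4.50 FPKM in vehicle tumors. Tamoxifen replicates 1 and 3 were below every vehicle library, and the groups overlapped. The log2 fold change was -0.54 (SE 0.26, 95% interval -1.13 to 0.06, limma adjusted p = 0.269). The change of Tlr7 exceeded that of Tlr9 by 1.16 on the log2 scale (SE 0.73), a difference that did not pass (exact permutation p = 0.143, adjusted p = 0.40).

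In bulk tumors, fewer cells of a type and less RNA per cell cannot be told apart, so markers of the cells that usually carry the Toll-like receptors were read beside them. The 14 macrophage and monocyte markers summed to 872 to 2643 FPKM in tamoxifen tumors, against 1057 to 1475 FPKM in vehicle tumors, with 0 of 14 past the limma threshold (median log2 fold change 0.16), although Mertk and Cd163 had adjusted p of 0.0762 and 0.0857. The 11 B cell markers summed to 47.3 to 87.9 FPKM in tamoxifen tumors, against 41.1 to 165 FPKM in vehicle tumors. None of 10 tested passed, but 9 had a negative change and their median log2 fold change was -0.69. Of 7 tested markers of plasmacytoid dendritic cells 5 had a negative change, with a median log2 fold change of -0.74, and 1 passed. It was Siglech, a surface lectin of those cells, at 1.05 ± 0.608 FPKM in tamoxifen and 3.28 ± 0.721 FPKM in vehicle tumors (log2 fold change -1.10, limma adjusted p = 0.0396). The call of Siglech held without tamoxifen replicate 1 and was lost without any other single library. The markers Ccr9, Cox6a2, Upb1 and Clec4b2 of that list were below a mean of 1 FPKM, and none was at 0 in all libraries. The part of these cells in the Toll-like receptor values was not tested.

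**Figure D4:**
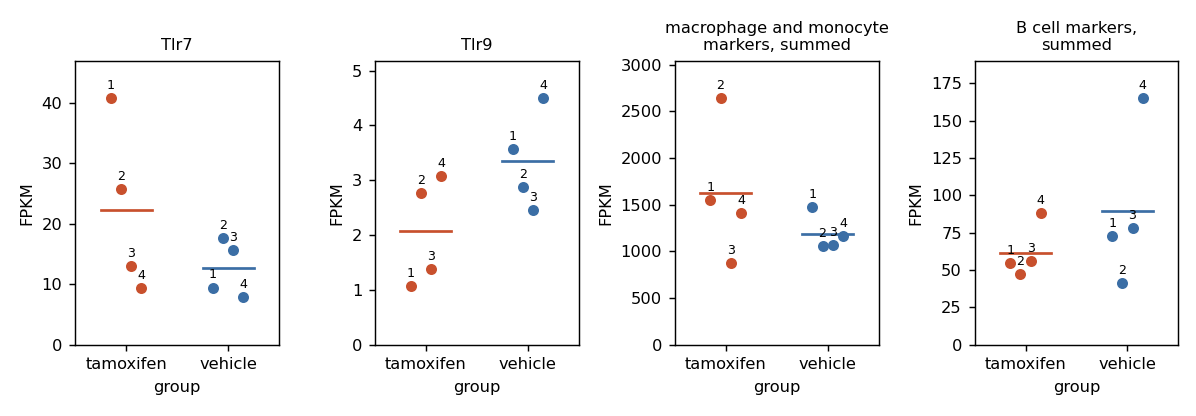
FPKM (y axes, from 0) of Tlr7 and Tlr9 and the summed FPKM of macrophage and B cell markers in each library, tamoxifen at left and vehicle at right, with replicate numbers beside the points and the group mean as a line. Tamoxifen replicate 1 has the highest Tlr7 value and tamoxifen replicate 2 the highest macrophage sum, and vehicle replicate 4 is highest for Tlr9 and for the B cell sum.

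Some markers of other immune and tissue cells changed beside the 5 sensor genes that fell, and the part of those cells in the falls was not tested. Of 16 T and NK cell markers 11 fell, led by Cd3e, Nkg7 and Prf1 (limma adjusted p = 0.00653, 0.0074 and 0.00952), with sums of 163 to 222 FPKM in tamoxifen and 298 to 405 FPKM in vehicle tumors. Of 10 markers of conventional dendritic cells 5 fell, led by Batf3, Clec9a and Xcr1 of the cross-presenting type, and Clec10a rose. Their sums were 45.6 to 57.8 FPKM in tamoxifen and 69.3 to 97.4 FPKM in vehicle tumors. Of 6 tested neutrophil markers 4 rose, Ly6g, S100a8, S100a9 and Retnlg (sums of 181 to 475 FPKM in tamoxifen tumors, against 7.52 to 27.9 FPKM in vehicle tumors). Csf3r and Mmp8 did not pass (limma adjusted p = 0.858 and 0.176), and Cxcr2, Ngp and Camp were below a mean of 1 FPKM. Of 8 endothelial markers 4 rose, Flt1, Emcn, Pecam1 and Tek (117 to 165 FPKM in tamoxifen tumors, against 80.6 to 96.1 FPKM in vehicle tumors). Of 10 epithelial markers 1 rose, Krt18, and the sums were 1627 to 3149 FPKM in tamoxifen and 932 to 1498 FPKM in vehicle tumors. Of 10 markers of the tumor lineage 1 rose, Cd34, and 1 fell, Edn3 (1203 to 1693 FPKM in tamoxifen tumors, against 1621 to 2350 FPKM in vehicle tumors). A negative change was seen in 6 of these 10, with a median log2 fold change of -0.20. Kit and Gpr20 were at -0.75 and -0.78 (limma adjusted p = 0.0674 and 0.0785). None of 8 smooth muscle and 8 fibroblast markers passed. The fibroblast markers summed to 649 to 1246 FPKM in tamoxifen and 452 to 775 FPKM in vehicle tumors, and 2 of the 8 had a negative change. Pdgfra came nearest (log2 fold change 1.47, limma adjusted p = 0.0541). Dcn measured 422, 531, 81.5 and 148 FPKM in tamoxifen replicates 1 to 4, against 59.7 to 90.2 FPKM in vehicle tumors (adjusted p = 0.134). The calls of Clec10a, Edn3, Retnlg and Tek held in 1, those of Krt18 and Pecam1 in 2 and that of Cd34 in 3 of the 8 fits that leave out a library, and that of Ncr1, a receptor of NK cells, in 0. None of the markers in these lists was at 0 in every library.

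The order of the 10 genes by mean FPKM was led by Zbp1, Ddx58, Tmem173, Mavs and Ifih1 in both groups, and Tlr9 was last in both. After tamoxifen the neighbours in that order overlapped in their ranges, except that Mavs stood above Ifih1 and Dhx58 above Tlr9. In vehicle tumors Zbp1 stood clear of Ddx58, Dhx58 of Trim25, Eif2ak2 of Tlr7 and Tlr7 of Tlr9, and the other neighbours overlapped. Dhx58 was sixth in vehicle tumors and ninth after tamoxifen, below Trim25, Tlr7 and Eif2ak2.

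The sample identifiers in the labels fall into a lower and a higher range of numbers, which the labels do not call a batch. For each of the 5 genes that fell, every tamoxifen value lay below every vehicle value. Their direction within each range was thus fixed beforehand and is not a check on the identifiers. The lower range held 2 tamoxifen and 3 vehicle libraries, and the higher range 2 and 1. Only the sizes are given, as differences of mean log2(FPKM + 1), tamoxifen minus vehicle. These were -1.19 and -1.17 for Ddx58, -1.42 and -1.19 for Dhx58, and -0.98 and -0.64 for Mavs, in the lower and the higher range. They were -0.94 and -1.79 for Tmem173 and -2.02 and -1.38 for Zbp1. For Tlr7 they were 1.17 and 0.44.

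Within the groups the genes did not vary as 1 block. As a description over 8 libraries that share 1 processing, deviations from the group means of log2(FPKM + 1) were compared by Pearson r. It was 0.96 between Ifih1 and Eif2ak2, 0.94 between Ddx58 and Eif2ak2 and 0.84 between Ddx58 and Ifih1. In each of these 3 genes vehicle replicate 1 was the lowest and vehicle replicate 2 the highest vehicle library. They are also the 3 genes with the response element core among the 6 with promoter sequence. The part of that core in these values was not tested. Dhx58 and Zbp1 had an r of 0.91. Mavs and Tmem173, the adaptors, had an r of -0.74, and Tlr7 and Dhx58 also -0.74. Among 9560 genes of at least 5 FPKM, the 3 nearest in this measure were Plekha3, Alg10b and Tnks for Ddx58 (r of 0.98 or more), Slc39a9, Copb2 and Tmtc4 for Ifih1 (0.98), and Stom, Tbc1d9 and Pank2 for Dhx58 (0.97 or more). They were Coq5, Fyco1 and Mmab for Mavs (0.96 or more) and Hpse, Ikzf3 and SNORD51 for Tmem173 (0.93 or more). For Zbp1 they were Mrpl22, Psmd13 and the interferon-induced Isg15 (0.97 or more), and for Eif2ak2 Apc, Pcgf5 and the interferon-induced Slfn5 (0.99). They were D14Abb1e, Pcf11 and Nol8 for Tlr7 (0.99) and Tmem51, Myo1g and Nek6 for Tlr9 (0.97 or more). With 8 libraries and this many genes searched, the top value was 0.98 or more for each of these 9 genes, and Trim25 was left out for its failed estimates.

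Around the 10 genes stand 123 tested genes of 6 further lists, of which 16 fell and 1 rose, and their levels are given as mean ± SD (n = 4 each), save where single libraries are given. Of 24 other nucleic acid sensors 3 fell, none rose and 21 did not pass, and the median of their log2 fold changes was -0.07. The 3 were Mndal (38.4 ± 11.9 FPKM in tamoxifen and 75.7 ± 8.97 FPKM in vehicle tumors, limma adjusted p = 0.032), Ifi203 (45.1 ± 14.4 FPKM in tamoxifen and 90.2 ± 18.9 FPKM in vehicle tumors, 0.044) and Ifi204 (23.7 ± 8.12 FPKM in tamoxifen and 45.7 ± 6.93 FPKM in vehicle tumors, 0.0497), which are DNA-binding proteins of 1 family of similar genes, so reads may be split between them. Each kept its call only without tamoxifen replicate 1 and lost it without any other single library, with adjusted p up to 0.122. Their relative Pyhin1 measured 4.29 ± 1.71 FPKM in tamoxifen and 7.74 ± 1.26 FPKM in vehicle tumors (adjusted p = 0.105). Tlr3, the endosomal receptor for double-stranded RNA, measured 18.6 ± 4.55 FPKM in tamoxifen and 31.0 ± 9.34 FPKM in vehicle tumors (adjusted p = 0.141), and Aim2, the inflammasome sensor of DNA, 22.05 ± 7.35 FPKM in tamoxifen and 17.9 ± 4.90 FPKM in vehicle tumors (0.669).

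Of 29 cofactors and regulators of the sensors 3 fell, none rose and 26 did not pass (median -0.15). Nlrc5, known as an activator of MHC class I genes and a regulator of this pathway, measured 35.1 ± 3.76 FPKM in tamoxifen and 69.9 ± 8.99 FPKM in vehicle tumors (log2 fold change -0.97, limma adjusted p = 0.00952). Oasl2, an oligoadenylate synthetase-like gene, measured 167 ± 28.9 FPKM in tamoxifen and 368 ± 65.3 FPKM in vehicle tumors (-1.13, adjusted p = 0.0146), and the antibody receptor and ubiquitin ligase Trim21 19.98 ± 2.96 FPKM in tamoxifen and 33.6 ± 6.21 FPKM in vehicle tumors (-0.72, 0.0421). The call of Trim21 held only without tamoxifen replicate 1 or vehicle replicate 1. Nlrc3, an inhibitor of STING signalling, measured 1.26 ± 0.111 FPKM in tamoxifen and 2.34 ± 0.334 FPKM in vehicle tumors (adjusted p = 0.0505). Unc93b1, the chaperone that carries Tlr7 and Tlr9 to endosomes, has no usable estimate in tamoxifen replicates 1 and 2. It measured 52.5 and 63.2 FPKM in tamoxifen replicates 3 and 4, against 94.3, 74.8, 79.1 and 84.9 FPKM in vehicle tumors (adjusted p = 0.121).

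Of 27 adaptors, kinases and transcription factors that relay the signal 2 fell, none rose and 25 did not pass (median -0.04). Irf7, the factor that drives interferon-alpha genes, measured 102, 116, 205 and 223 FPKM in tamoxifen tumors, against 528, 437, 491 and 564 FPKM in vehicle tumors. The groups were wide apart, with a log2 fold change of -1.72 (limma adjusted p = 0.0134) that held in every alternative. Mlkl, the pore-forming effector of necroptosis, measured 28.2 ± 6.68 FPKM in tamoxifen and 54.1 ± 6.01 FPKM in vehicle tumors (adjusted p = 0.0249), a call lost without vehicle replicate 2, 3 or 4 (adjusted p up to 0.0759). Traf3 and Irf5 measured 7.38 ± 1.49 and 29.8 ± 2.51 FPKM in tamoxifen tumors, against 11.5 ± 1.09 and 38.8 ± 2.51 FPKM in vehicle tumors (adjusted p = 0.066 and 0.0778). The kinase Tbk1 (24.0 ± 2.88 FPKM in tamoxifen and 19.5 ± 2.47 FPKM in vehicle tumors, 0.228), the factor Irf3 (67.6 ± 5.62 FPKM in tamoxifen and 75.6 ± 10.02 FPKM in vehicle tumors, 0.526) and the Toll-like receptor adaptor Myd88 (23.8 ± 3.40 FPKM in tamoxifen and 26.7 ± 3.54 FPKM in vehicle tumors, 0.539) did not pass.

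**Figure D5:**
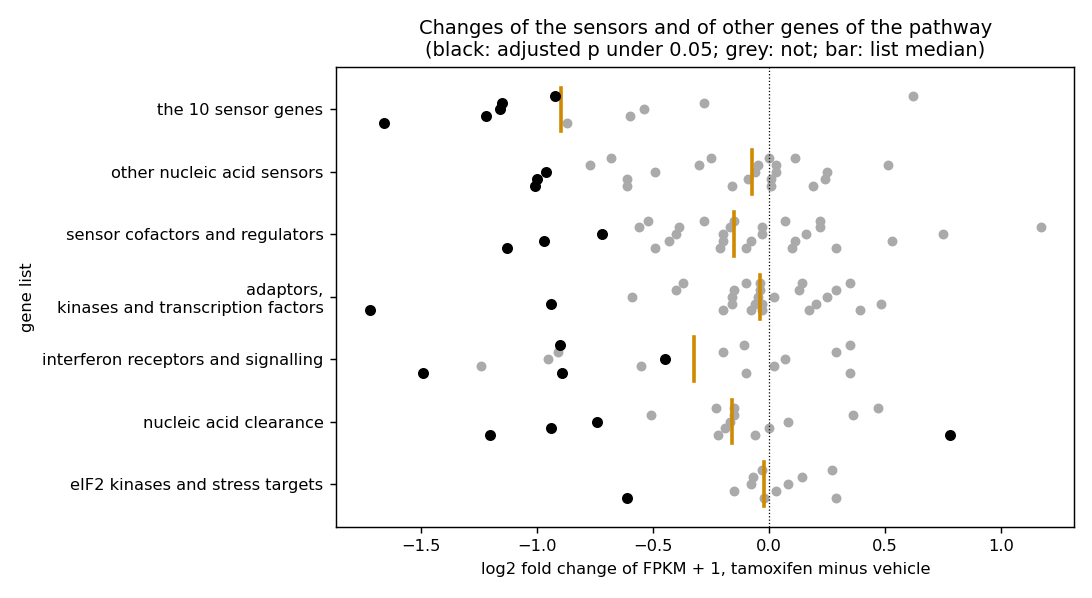
Log2 fold change of FPKM + 1, tamoxifen minus vehicle (x axis), of the 10 sensor genes and of the tested genes of 6 pathway lists (rows), 1 point a gene. Black points passed the limma threshold, grey did not, and the bar is the list median, -0.90 for the sensor genes and between -0.32 and -0.02 for the other lists.

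Interferon genes themselves were listed at or near 0 FPKM. Of the 19 that the table lists, 11 were listed at 0 in all 8 libraries and none reached the filter. The highest was Ifng, at 0.206 to 0.971 FPKM in tamoxifen and 0.552 to 1.32 FPKM in vehicle tumors, and Ifnb1 did not exceed 0.153 FPKM. Of 16 interferon receptor and signalling genes 4 fell, none rose and 12 did not pass (median -0.32). Irf9 and Stat2, DNA-binding factors of interferon signalling, fell by 0.89 and 0.90 on the log2 scale (limma adjusted p = 0.00882 and 0.0247). The receptor chain Ifnar2 measured 42.9 ± 0.715 FPKM in tamoxifen and 59.2 ± 6.02 FPKM in vehicle tumors (0.0464), a call lost without any 1 library. Stat2 kept its call without tamoxifen replicates 3 and 4 and vehicle replicate 1, and lost it without the other libraries.

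Of 16 nucleases and other genes that clear or edit nucleic acid 3 fell, 1 rose and 12 did not pass (median -0.16). Samhd1, which destroys the nucleotides needed for DNA synthesis, measured 97.0 ± 12.3 FPKM in tamoxifen and 187 ± 25.8 FPKM in vehicle tumors (limma adjusted p = 0.013). The editing enzyme gene Adar measured 32.3 ± 7.21 FPKM in tamoxifen and 54.0 ± 6.53 FPKM in vehicle tumors (0.0471) and the secreted nuclease Dnase1l3 2.48 ± 1.18 FPKM in tamoxifen and 6.77 ± 1.64 FPKM in vehicle tumors (0.0473). Enpp1, which breaks down the dinucleotide that activates STING, rose, with 25.9 ± 6.50 FPKM in tamoxifen and 14.5 ± 1.78 FPKM in vehicle tumors (0.0454). The calls of Adar, Dnase1l3 and Enpp1 each held only without tamoxifen replicate 4, with adjusted p up to 0.13 without other libraries. Of 11 tested genes of the eIF2 kinases and their stress targets 1 fell, Ddit3 (31.3 ± 3.08 FPKM in tamoxifen and 48.7 ± 7.59 FPKM in vehicle tumors, 0.0437), a stress-induced transcription factor whose call held only without tamoxifen replicate 3. Next by p in that list were Ppp1r15b, Eif2s1 and Ppp1r15a, which did not pass (adjusted p = 0.177, 0.519 and 0.53). The other eIF2 kinases Eif2ak1, Eif2ak3 and Eif2ak4 did not pass, with log2 fold changes between -0.08 and -0.02.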

How the data were processed

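The data are RNA sequencing libraries of cecal tumors, 4 tamoxifen and 4 vehicle, grouped by their titles. The authors deposited gene-level FPKM with confidence bounds, here read as a signal on the FPKM scale, and a status per value, per the file headers. STAR 2.3, Cufflinks, Cuffdiff and the mm9 build are named in the submitters' processing notes. The role of each, the annotation, strandedness and the treatment of shared reads were not given in the sources used here. Columns were mapped through the identifiers that the sample descriptions hold. The 178 failed values, listed at 0, were set missing, and rows were summed per symbol.

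Genes with a mean of at least 1 FPKM and 2 estimates per group (15023) were compared on log2(FPKM + 1) with limma 3.58.1 in R 4.3.3 (mean-variance trend, 2-sided). A fold change on this scale understates that of low genes. In simulated data of 14975 genes with 200 changed, the procedure recovered 64% of changes of 1 and 93% of changes of 2 on the log2 scale, and 11 of 168 calls were false. The changes were put only in genes of higher mean level, with noise independent between genes and no failed values. These rates therefore do not cover genes as low as Tlr9, or Trim25 with its failed estimates. Member pairs used an exact permutation test over 70 arrangements (smallest p 0.0286).

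Members, lists, tests and alternatives were chosen with earlier results of these data known. Named genes were all members, Etv1, up to 4 genes a pathway list by smallest p and every list gene past the threshold where these were at most 5, from marker lists the called genes (the 3 with the smallest p where more than 5), and the nearest genes by deviations. Cgas, Tlr3, Tlr8, Aim2, Unc93b1, Tbk1, Irf3, Myd88, Ifng, Ifnb1, Kit, Ano1 and other eIF2 kinases were added for their role, with their values seen. Same-numbered libraries did not deviate together (correlations -0.16 to 0.14). Depth is unknown, so no counting interval is given. A gene that the naming rule takes is not reported here.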

Additional observations from a re-analysis of the deposited data

How the results depend on the processing

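The count of genes called across the table was 819. It was 617 with no filter, 534 with a filter at a mean of 5 FPKM, 228 with scaling to the same total and 252 with the replicate block. Higher counts were 1207 with quality weights, 990 with the range of sample identifiers as a covariate and 913 with a robust limma fit. Scaling by the median ratio gave 842, and adding 0.1 or 0.25 FPKM in place of 1 gave 871 and 864. Without single libraries the count ran from 268 to 856, lowest without vehicle replicate 3. Of the 10 sensor genes 5 were called. The count was 1 with scaling to the same total and 3 with the replicate block (Dhx58, Mavs and Zbp1). It was 5 with scaling by the median ratio, 6 with quality weights, and 5 or 6 without single libraries. Replicate numbers are not stated to pair the samples, and their deviations had correlations of -0.16, 0.00, 0.14 and 0.06. In the block, adjusted p was 0.0575 for Ddx58 and 0.0522 for Tmem173. Trim25 was the 1 gene of the 10 whose change turned, to 0.08 with scaling to the same total. It stayed negative with that total taken without Ighj1 and Ighj4 (-0.38) and with the median ratio (-0.30). The difference of Ifih1 from Mavs turned to between -0.07 and -0.03 without 4 of the libraries and reached 0.18 without another. Of the 17 pathway genes called, 1 kept its call with scaling to the same total, 16 with that total taken without Ighj1 and Ighj4, 4 in the block, and 6 without any 1 library. The cause of these moves was not tested. Without replicate 1 or 2 of a group the lone Trim25 value was not fitted by limma, and its pair test then compared 1 library with 2. The number of libraries limits precision, and depth is unknown.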

Other observations

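Tlr7 lies on the X chromosome, and its levels were set beside Xist after both had been seen. In tamoxifen replicates 1 to 4 Xist measured 0.249, 0.226, 322 and 245 FPKM, and Tlr7 40.8, 25.7, 12.99 and 9.35 FPKM. In vehicle replicates 1 to 4 Xist measured 0.184, 289, 261 and 0.440 FPKM, and Tlr7 9.46, 17.7, 15.6 and 7.89 FPKM. The libraries with little Xist were therefore the 2 highest for Tlr7 after tamoxifen and the 2 lowest in vehicle tumors. Ddx3y measured 31.9 to 64.2 FPKM in the libraries with little Xist and 0.111 FPKM or less in the others. No fit included this split. No test was made, because the split was read from the data and leaves 2 libraries in each part. The 2 tamoxifen libraries with little Xist are also those in the lower range of sample identifiers.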
